A study of Mus musculus with 8 samples.

Results

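The 9 genes described here are the megakaryocyte priming genes Itga2b, Vwf, Pf4, Gp1bb, Gp9, Itgb3, Clu, Selp and Treml1. They were taken as a list of names rather than by a threshold on their values, and all 9 were among the 10720 genes of the expression table. The table held 586 single hematopoietic stem cells (HSCs) from the bone marrow of adult C57BL/6 mice, sorted as LSK cells (negative for lineage markers, positive for Sca1 and c-Kit) with the CD150+CD34-CD48- phenotype and picked by hand. Cells labelled WT were from Mx1-cre- Med23 L/L littermates, and cells labelled KO (genotype label Med23-/-) were from Mx1-cre+ Med23 L/L mice. The floxed allele was present in both. Med23 is part of Mediator, the complex that links transcription factors to RNA polymerase II. Deletion was induced by poly(I:C), an interferon inducer that itself acts on HSCs, and Mx1-cre is active in every cell that responds to interferon, inside and outside the blood. Each genotype had 4 libraries, but the columns name only the genotype and a cell number, so the cells of a genotype had to be taken as 1 pool. No difference below therefore has a replicate check, and library, animal and genotype cannot be told apart.

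Megakaryocytes are the large bone marrow cells that shed platelets. Some HSCs already transcribe megakaryocyte genes at a low level, a state called priming, and HSCs that express Vwf are known to be biased towards platelet production. The genes fall into 3 roles: adhesion receptors of the platelet surface (Itga2b and Itgb3, Gp9 and Gp1bb), membrane proteins of the alpha granule that reach the surface upon activation (Selp and Treml1), and secreted proteins (Pf4, Vwf and Clu).

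The sequences just before the start sites were examined for 3 kinds of motif that megakaryocyte transcription factors are known to bind. Promoter sequences from RefSeq (GRCm38.p6) were matched by symbol for 6 of the 9 genes and missed for Vwf, Itgb3 and Clu. In the 250 bases before the start site, on both strands, the ETS motif AGGAAG was found in 4 of 6 windows (Gp9, Itga2b, Pf4 and Selp), and 29.5% of 32817 promoter windows of the same length hold it. The RUNX motif TGTGGT was found in Gp9 (14.0% of all windows). The GATA motifs AGATAA (9.99% of all windows) and TGATAA (7.95%) were found in 0 of 6. The 4 windows that hold no exon are shown to let the position of each match be seen, 5′ to 3′ on the strand of the gene, ending at the base before the start site. Capitals mark the motif matches, which in all 3 windows that hold one lie on the opposite strand. The match nearest to the start site, that of Pf4, spans 9 to 4 bases before it. These are Gp9 (chr6:87777820-87778069, + strand), Pf4 (chr5:90772185-90772434, + strand), Selp (chr1:164115014-164115263, + strand) and Treml1 (chr17:48359666-48359915, + strand), none of which overlap an annotated exon.
Gp9: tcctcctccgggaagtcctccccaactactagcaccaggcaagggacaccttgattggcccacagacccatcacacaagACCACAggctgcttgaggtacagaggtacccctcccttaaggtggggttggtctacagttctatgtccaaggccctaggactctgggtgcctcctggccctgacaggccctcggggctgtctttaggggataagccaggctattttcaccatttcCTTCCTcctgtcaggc
Pf4: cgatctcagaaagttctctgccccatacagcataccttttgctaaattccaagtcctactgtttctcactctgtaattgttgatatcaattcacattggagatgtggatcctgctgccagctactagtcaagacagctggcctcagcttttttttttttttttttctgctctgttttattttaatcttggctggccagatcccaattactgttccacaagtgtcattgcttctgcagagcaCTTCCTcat
Selp: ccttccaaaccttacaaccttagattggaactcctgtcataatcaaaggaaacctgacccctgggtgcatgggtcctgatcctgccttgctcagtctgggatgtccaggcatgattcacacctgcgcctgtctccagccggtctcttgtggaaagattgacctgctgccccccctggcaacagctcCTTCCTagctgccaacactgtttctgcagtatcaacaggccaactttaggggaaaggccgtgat
Treml1: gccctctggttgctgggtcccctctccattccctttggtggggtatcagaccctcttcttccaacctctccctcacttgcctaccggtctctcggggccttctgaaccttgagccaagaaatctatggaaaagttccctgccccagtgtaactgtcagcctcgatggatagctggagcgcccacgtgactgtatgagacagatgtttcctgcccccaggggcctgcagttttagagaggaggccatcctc

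The values are unique molecular identifiers (UMIs), each standing for 1 RNA molecule counted from its 3′ end, so a level does not scale with the length of a gene. The 259 WT and 234 KO cells with at least 2000 genes and 20000 UMIs were kept, with a median of 59649 and 50281 UMIs. Levels are given as UMIs of a gene per 1000000 UMIs (CPM), and ratios as log2 of KO over WT, with exact 95% intervals that cover counting error only. Med23 itself was not lower in KO than in WT, with 5.68 CPM (122 UMIs) in WT and 7.23 CPM (117 UMIs) in KO. The log2 ratio was 0.35 (interval -0.03 to 0.73), but -0.40 with at least 3000 genes and 30000 UMIs per cell. The paper reports efficient deletion of Med23 after poly(I:C). Whether counts from the 3′ end would register that deletion was not tested, so KO is used below as the name of a label. All 10 HSC identity genes that were looked for were present, with a summed level of 1085 CPM in WT and 846 CPM in KO. Of these, 3 were higher in KO and 7 lower. Past 2-fold were Mecom (log2 ratio 1.14) and Slamf1 (837 and 132 UMIs, -2.26), the gene of the sort marker CD150. Of all genes, 6.98% were higher by 2-fold and 7.94% lower. A set of 74 WT cells and 4 KO cells held over 1000 CPM of oocyte genes, RNA foreign to this sort, and each main count and ratio was also computed without them. Without these cells 2 of the identity genes were higher in KO and 8 lower. Past 2-fold, 0 were then higher and 1 was lower, so Mecom no longer passed.

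In the pools, 4 of the 9 genes were lower in KO by at least 2-fold (Vwf, Clu, Gp1bb and Treml1) and 1 was higher by as much (Selp), beside 7.94% and 6.98% of all genes, respectively. The authors kept genes by their mean over all cells (above 0.2). Vwf, Clu and Treml1, with 7, 7 and 46 UMIs in KO, passed this filter only through their WT cells. The count of lower genes is therefore not evidence of a direction. Itga2b, Itgb3 and Gp9 were higher in KO by less than 2-fold. Pf4, by far the most abundant, differed little between the pools. The counting interval lay above 0 for 4 genes and below 0 for 5, so off 0 for 9 of 9, as it did for 39.2%, 35.7% and 74.9% of all genes, so at this depth most genes of the table differ beyond counting error. The median log2 ratio of the 9 genes was -0.10, against 0.02 for all genes, whose 5th and 95th percentiles were -1.45 and 1.18. With those 74 WT and 4 KO cells left out, the same 4 genes were lower by 2-fold and the same 1 was higher, beside 6.8% and 8.99% of all genes.

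**Figure D1:**
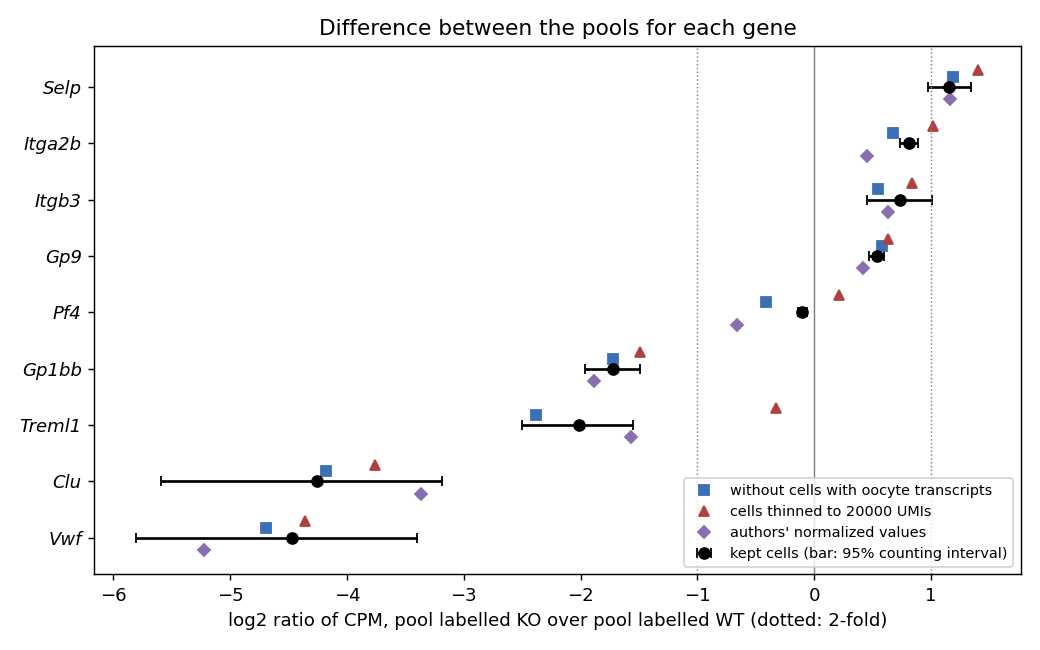
Log2 ratio of CPM, KO pool over WT pool (x axis), for each of the 9 genes (y axis); black points are the kept cells with 95% counting intervals, and coloured marks are the same ratio without the cells with oocyte transcripts, with cells thinned to 20000 UMIs, and from the authors' normalized values. Selp lies at 1.16 and Vwf at -4.47, and of the 9 genes only Pf4 has marks on both sides of 0.

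The order of the levels differed between the pools in its lower part. In WT, Pf4 (632 CPM) was followed by Gp9 (161), Itga2b (103), Gp1bb (38.8) and Selp (18.1). Below these, Treml1, Vwf, Itgb3 and Clu lay between 8.29 and 11.5 CPM, and each neighbouring pair in this order had overlapping intervals. In KO, Pf4 (589 CPM), Gp9 (234) and Itga2b (180) again came first, followed by Selp (40.2). Itgb3 (15.1, interval 13.2 to 17.1) and Gp1bb (11.7, 10.1 to 13.5) overlapped, Treml1 was at 2.84, and Vwf and Clu were each at 0.433 CPM. Among all 10720 genes, Pf4 ranked 196 by level in WT and 206 in KO, while Gp9 moved from rank 1069 to 658 and Itga2b from 1719 to 937.

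Itga2b encodes integrin alpha IIb (CD41), which with integrin beta 3 forms the fibrinogen receptor of platelets. Its level per cell ran from 0 through a median of 27.6 to 804 CPM in WT, and from 0 through 107 to 1081 CPM in KO. The cells of the labels overlapped over nearly the whole range, but fewer KO cells were at 0. With each cell thinned to 20000 UMIs, to remove differences in depth, Itga2b was detected in 47.1% of WT cells (40.9 to 53.4) and 74.4% of KO cells (68.3 to 79.8). Without thinning the shares were 69.1% and 87.6%. The pooled log2 ratio was 0.81 (0.73 to 0.89), and it ranged from 0.46 to 1.02 in the alternatives. No single cell held more than 6.57% of the UMIs of either pool. The difference thus lay in many cells rather than in a few.

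Itgb3, the integrin partner of Itga2b, was sparse in both labels. The median cell held 0 and the highest 277 CPM in WT and 489 CPM in KO, and 8.11% of WT cells and 9.40% of KO cells had a UMI at 20000 UMIs. The share of cells did not differ beyond counting error (intervals 5.09 to 12.1 and 5.99 to 13.9). The pooled log2 ratio of 0.73 (0.45 to 1.01) rested in part on 1 KO cell that held 83 of 244 UMIs, and it was 0.40 without the top cell of each label. Cells with an Itga2b UMI had an Itgb3 UMI no more often than the others, with 10 of 122 cells against 11 of 137 in WT and 16 of 174 against 6 of 60 in KO.

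**Figure D2:**
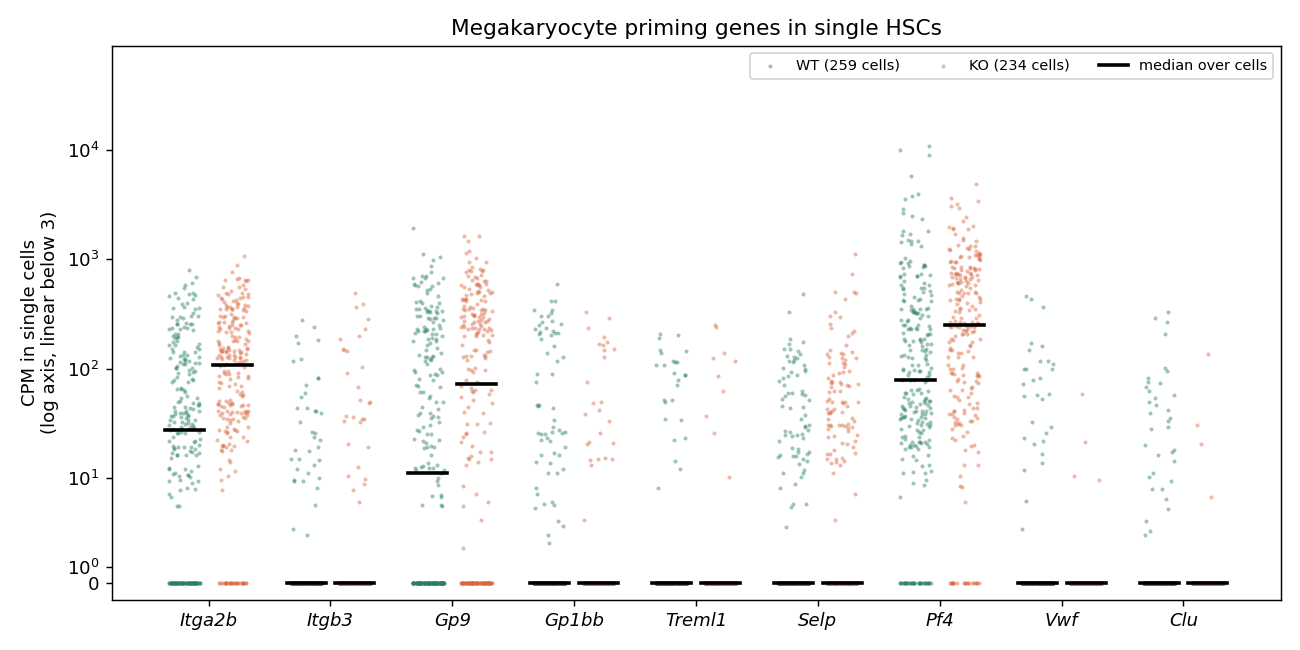
CPM in each kept cell (y axis, log scale, linear below 3) for the 9 genes (x axis), with 259 WT cells in green and 234 KO cells in orange; black lines are medians over cells. The KO median is above the WT median for Itga2b, Gp9 and Pf4, and for the other 6 genes both medians are at 0.

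Gp9 and Gp1bb are 2 subunits of the GPIb-IX-V complex, the platelet receptor for von Willebrand factor, and they differed in opposite directions. Gp9 per cell ran from 0 through a median of 11.1 to 1925 CPM in WT, and from 0 through 72.4 to 1651 CPM in KO. It was detected in 44.8% of WT cells (38.6 to 51.1) and 54.7% of KO cells (48.1 to 61.2) at equal depth. These intervals overlap. The difference of 9.91 percentage points was 11.7 to 15.4 in the alternatives, with 32.0% and 47.4% at 10000 UMIs and 34.7% and 49.6% with a minimum of 2 UMIs. The pooled log2 ratio was 0.54 (0.47 to 0.60). A total of 13 WT cells and 18 KO cells held at least 50% of the Gp9 UMIs of their pool.

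Gp1bb, by contrast, was at 38.8 CPM in the WT pool and at 11.7 CPM in that of KO, with a log2 ratio of -1.72 (-1.96 to -1.49). The median cell was at 0 in both labels and the highest at 591 CPM in WT and 328 CPM in KO. It was detected at equal depth in 37 WT cells (14.3%, 10.3 to 19.2) and 15 KO cells (6.41%, 3.63 to 10.4). Gp1bb overlaps the end of its neighbour Septin5 on the same strand. Septin5 was not analysed here, and reads that run on from it could be counted as Gp1bb, so its level is uncertain. Of the other subunits, Gp1ba was lower in KO (84 and 30 UMIs, log2 ratio -1.08, -1.73 to -0.46), and Gp5, chosen after its value was seen, had a log2 ratio of 0.07 (-0.08 to 0.22). The transcripts of this 1 receptor complex thus did not differ together.

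Selp encodes P-selectin, which binds leukocytes after it moves from alpha granules to the surface, and which endothelial cells also make. The highest cell was at 479 CPM in WT and 1131 CPM in KO, with the median at 0 in both. Selp was detected in 16.2% of WT cells (11.9 to 21.3) and 29.5% of KO cells (23.7 to 35.8) at equal depth. The pooled level was 18.1 and 40.2 CPM, a log2 ratio of 1.16 (0.97 to 1.34), and it stayed between 1.13 and 1.41 in the alternatives tried. Selp was thus the 1 gene of the 9 that was higher by 2-fold, and it was higher in level and in share of cells. Of 8 endothelial markers, Pecam1 and Kdr were in the table, and with all kept cells they differed in opposite directions. Pecam1 was at 19.5 CPM in WT and 53.0 CPM in KO (log2 ratio 1.45), and Kdr at 7.08 and 2.10 CPM (-1.75). With the cells with oocyte transcripts left out, both markers were higher in KO, as Selp was, with a median log2 ratio of 1.21. The part of endothelial RNA in the Selp result was not tested.

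Treml1, a receptor of the alpha granule membrane, had 246 UMIs in 26 WT cells and 46 UMIs in 10 KO cells. The highest cell was at 208 CPM in WT and 251 CPM in KO. The pooled log2 ratio was -2.01 (-2.50 to -1.55). Cells with a Treml1 UMI were deep in WT (median 87004 UMIs) and shallow in KO (median 27887), and when every cell was thinned to 20000 UMIs before summing the log2 ratio was -0.33. The share of cells at equal depth was 7.34% (4.47 to 11.2) in WT and 2.99% (1.21 to 6.07) in KO, with overlapping intervals. The size of the Treml1 difference thus depended on how deep cells were weighted.

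Pf4 encodes platelet factor 4 (CXCL4), a chemokine stored in alpha granules. Its level per cell ran from 0 through a median of 78.9 to 11004 CPM in WT, and from 0 through 250 to 4863 CPM in KO. The median was higher in KO and the maximum higher in WT, and the pools met at 632 and 589 CPM (log2 ratio -0.10, -0.14 to -0.06). A total of 7 WT cells held at least 50% of the Pf4 UMIs of the WT pool, the top cell 14.8%, whereas 18 cells were needed in KO, where the top cell held 5.04%. With cells thinned before summing the log2 ratio was 0.21, and without the top cell of each label 0.055. It was -0.41 without the cells with oocyte transcripts and -0.66 with the authors' normalized values. No direction is therefore given for the pooled level of Pf4. Pf4 was detected at equal depth in 68.3% of WT cells (62.3 to 74.0) and 83.3% of KO cells (77.9 to 87.9).

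Vwf encodes von Willebrand factor, the large adhesive protein that tethers platelets to vessel walls, made by megakaryocytes and endothelium. It had 206 UMIs in 30 WT cells and 7 UMIs in 4 KO cells. Of the cells with a UMI, WT values ran from 3.43 through a median of 65.4 to 463 CPM, and those in KO from 9.53 through 15.8 to 58.2 CPM. The pooled levels were 9.59 and 0.433 CPM, a log2 ratio of -4.47 (-5.80 to -3.40), which ranged from -5.23 to -3.63 in the alternatives. At equal depth 25 WT cells (9.65%, 6.34 to 13.9) and 1 KO cell (0.427%, 0.0108 to 2.36) had a UMI. The 5 highest WT cells held at least 50% of the WT UMIs, so the level, though not the count of cells, rested on few cells.

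Clu encodes clusterin, a secreted chaperone of plasma and alpha granules that, like Vwf and Selp, is known to be higher in HSCs of old mice. It had 178 UMIs in 36 WT cells and 7 UMIs in 4 KO cells. The highest cell was at 328 CPM in WT and 136 CPM in KO. The pooled log2 ratio was -4.26 (-5.60 to -3.19), and the shares at equal depth were 6.95% (4.17 to 10.8) and 0.427% (0.0108 to 2.36). Vwf and Clu were thus close to the limit of detection in KO, while Selp differed in the opposite direction.

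Foreign RNA moved with the labels and is given beside these results. The oocyte list (30 of 33 genes present) was at 3079 CPM in WT and 141 CPM in KO. Of the UMIs in WT, the 74 cells with oocyte transcripts held 33 of 206 for Vwf, 57 of 178 for Clu, 234 of 833 for Gp1bb and 17 of 246 for Treml1. Without those cells the log2 ratios of these genes were -4.70, -4.18, -1.73 and -2.39, each within the counting interval given above. Those of the higher genes were 0.68 for Itga2b, which is below its counting interval, and 0.58 for Gp9, 0.55 for Itgb3 and 1.19 for Selp. Stromal markers (3 of 7 present) were at 33.2 CPM in WT and 3.52 CPM in KO, and 94 of the 259 WT cells had a UMI of one. These cells held 36.4% of the Vwf, 50.6% of the Clu, 57.3% of the Gp1bb and 15.9% of the Treml1 UMIs of WT. Of the genes higher in KO they held 56.0% for Itga2b, 53.3% for Gp9, 53.3% for Itgb3 and 58.8% for Selp. The share of all WT UMIs in these cells and the ratios without them are not given here. The part of stromal RNA in these results was not tested. Zp3, an oocyte gene that HSCs should lack, had a UMI at equal depth in 48.3% of WT cells and 6.41% of KO cells, at a pooled 394 and 7.17 CPM. Without the cells with oocyte transcripts the Zp3 shares were 35.7% and 5.65%. Pf4 in WT, and Itga2b, Pf4, Gp9 and Selp in KO, were detected in more cells than Zp3 with intervals that did not overlap. Itga2b (44.3%) and Gp9 (43.8%) in WT had a larger share than Zp3 only with the cells with oocyte transcripts left out, a difference that was not tested. A single UMI of the other genes therefore does not show that the cell itself expressed the gene, and the counts of genes per cell and of genes found together below are counts of detection.

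To ask how many of the genes were detected at once, the 9 genes were counted in each cell at 20000 UMIs. KO cells held a mean of 2.62 (SD 1.20 over 234 cells) and WT cells 2.23 (SD 1.48 over 259 cells). The distribution was narrower in KO, with 145 of 234 cells at 2 or 3 genes, against 127 of 259 in WT. Cells with at most 1 gene made up 35.5% of WT (29.7 to 41.7) and 15.8% of KO (11.4 to 21.1). At the other end, 9 WT cells (3.47%, 1.60 to 6.49) and 2 KO cells (0.855%, 0.104 to 3.05) held 6 or more, a difference within counting error. Without thinning the means were 3.12 in WT and 3.17 in KO, and with a minimum of 2 UMIs at equal depth the KO mean was higher by 0.54.

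**Figure D3:**
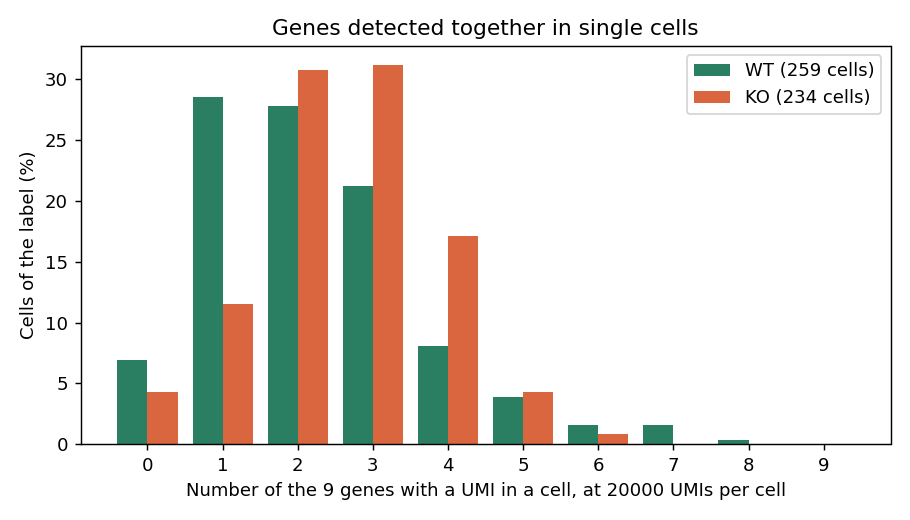
Share of cells of each label (y axis, %) by the number of the 9 genes with a UMI (x axis), each cell thinned to 20000 UMIs; green bars are 259 WT cells and orange bars 234 KO cells. KO cells peak at 2 and 3 genes, WT cells at 1 and 2, and cells with 7 or 8 genes are WT.

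Genes detected in the same cells were then compared, as a description, since cells of 1 pool share libraries and are not replicates. Among pairs of the 9 genes, Gp1bb and Treml1 had the highest correlation across WT cells (Spearman's rho 0.36). In WT, 11 of 37 cells with Gp1bb had Treml1 (29.7%, 15.9 to 47.0), against 8 of 222 cells without it (3.60%, 1.57 to 6.98). In KO the counts were 3 of 15 and 4 of 219 cells, with intervals that overlap. Cells with Gp1bb also had Gata1, a master transcription factor of megakaryocytes and red cells, in 16 of 37 cases in WT, against 26 of 222 cells without Gp1bb, and in KO in 5 of 15 against 5 of 219. Of the WT cells with Gp1bb, 34 of 37 had Pf4 and 28 of 37 had Itga2b, above the 143 and 94 of the 222 cells without it. In KO, 13 of 15 cells with Gp1bb had Pf4 and 13 of 15 had Itga2b. Of the 219 KO cells without it, 182 and 161 did, with intervals that overlap for each gene.

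Itga2b and Selp were seldom found together in WT. There, 9.02% of cells with Itga2b had Selp (4.59 to 15.6), against 22.6% of those without it (15.9 to 30.6). In KO the counts were 51 of 174 and 18 of 60, about equal shares. With the cells with oocyte transcripts left out, the WT counts were 9 of 82 and 24 of 103, and the intervals then overlapped. Vwf was found with Itga2b in 20 of 122 WT cells and without it in 5 of 137. WT cells with Vwf more often had Selp (10 of 25, against 32 of 234 cells without Vwf) and Clu (6 of 25, against 12 of 234). The intervals of each of these 3 comparisons of Vwf did not overlap. With the cells with oocyte transcripts left out, those of Vwf and Itga2b did (14 of 82 cells against 5 of 103). The shares were then 17.1% and 4.85%, against 16.4% and 3.65% with all kept cells.

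For the 4 genes detected in at least 10% of cells of each label, the most similar genes among 9325 candidates were ranked by Spearman's rho across thinned cells, averaged over the labels (259 and 234 cells). Gp9 headed the list for Pf4 (mean rho 0.20), followed by Ppbp (0.20), the neighbouring chemokine gene, and Mfsd2b (0.18). Itga2b headed the list for Gp9 (0.24), and Gp1bb was also among its 3 most similar genes (0.21). The genes most like Itga2b were Smc2 (0.25), Cdk6 (0.24) and Gp9 (0.24), and those most like Selp were Dolpp1 (0.18), S1pr1 (0.16) and Coq8a (0.16). All these correlations are weak, and in sparse counts their order is a description only. They are the highest among the candidates, and no level for unrelated genes was computed. Without the cells with oocyte transcripts Mfsd2b ranked 32 for Pf4 and S1pr1 ranked 25 for Selp. By Pearson's correlation Coq8a ranked 137 for Selp. The other genes named for these 4 ranked 1 to 8 in both settings. Outside that rule, Gp1bb had a mean rho of 0.34 with Gata1 and 0.31 with Treml1, a pair chosen after the values were seen.

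**Figure D4:**
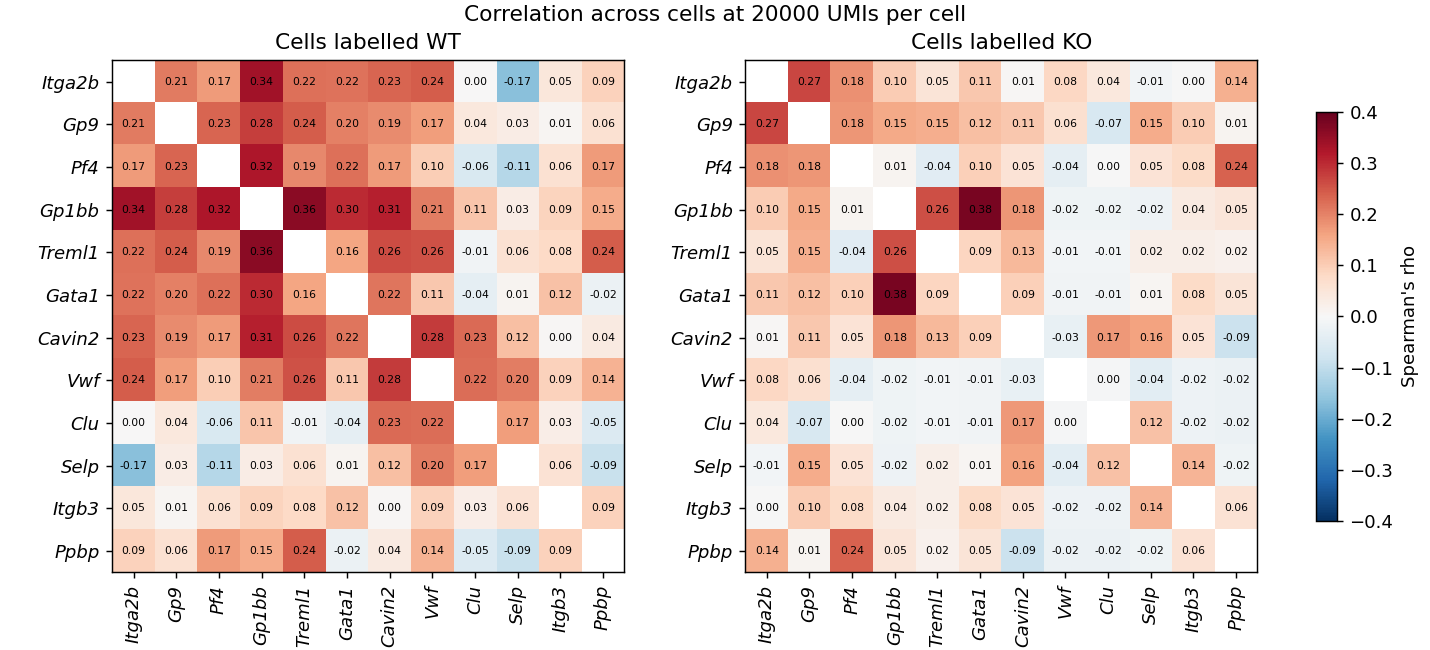
Spearman's rho (colour and number) between the 9 genes and Gata1, Cavin2 and Ppbp across 259 WT cells (left) and 234 KO cells (right), each thinned to 20000 UMIs. Gp1bb reaches 0.36 with Treml1 in WT and 0.38 with Gata1 in KO, and Itga2b and Selp lie at -0.17 in WT.

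The rest of the megakaryocyte programme was described with 4 lists that hold none of the 9 genes, of which 51 of 66 genes were in the table. Of these, 5 were higher in KO by 2-fold and 5 lower (9.80% each), close to the 6.98% and 7.94% of all genes, and the median log2 ratio was 0.20, against 0.02 over all genes. Among granule and secretion genes (11), Ppbp, the platelet basic protein, was higher (136 UMIs in WT and 434 in KO, log2 ratio 2.08), as was Nbeal2, needed for alpha granules to form (1.40). In the same list Sparc, a matrix protein with 199 and 3 UMIs, was lower (-5.64, -7.93 to -4.08), as was Serpine2, a protease inhibitor (296 and 25 UMIs, -3.16). Sparc and Serpine2 passed the filter on gene means only through their WT cells. Among cytoskeleton and signalling genes (16), Plek (1.29), Flna (1.20) and Vcl (1.12), which act on the actin cytoskeleton, were higher, and Cavin2, a coat protein of caveolae, was lower (1951 and 376 UMIs, -1.97). None of the 10 transcription factors was higher by 2-fold and Gata1 was lower (660 and 177 UMIs, -1.49), with 98 of the KO UMIs in 1 cell. None of the 14 receptors was higher and Gp1ba was lower. Without the cells with oocyte transcripts, Plek (0.98), Vcl (0.83) and Gp1ba (-0.92) no longer passed 2-fold, and Sparc was at -3.69. The thromboxane receptor gene Tbxa2r (0.86 with all kept cells and 1.09 without those cells) and the signalling adaptor gene Lat (-0.96 and -1.02) then did pass it, so 1 of the 14 receptors was higher and 0 were lower in that setting.

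**Figure D5:**
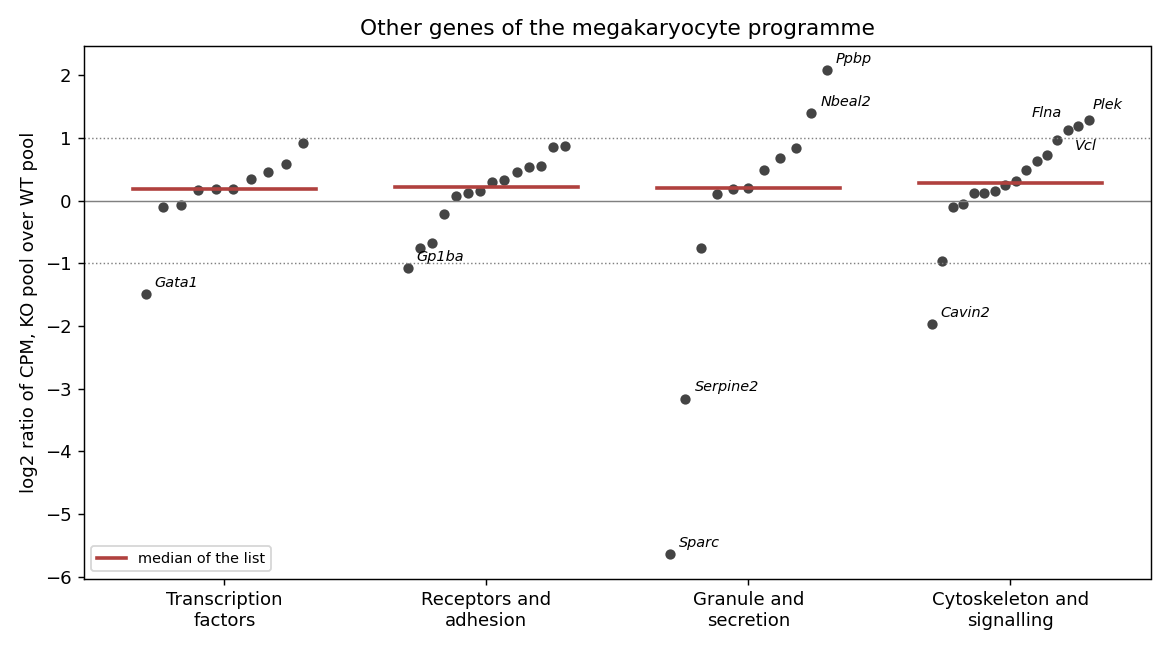
Log2 ratio of CPM, KO pool over WT pool (y axis), for 51 other megakaryocyte genes in 4 lists (x axis); each point is a gene, red lines are list medians and dotted lines mark 2-fold. The medians lie between 0.19 and 0.29, with single genes as far as 2.08 (Ppbp) and -5.64 (Sparc).

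The granulocyte-macrophage list, another myeloid programme, was set beside the 9 genes. Of its 22 genes, 12 were in the table. Of these 12, 6 were higher in KO by 2-fold and 0 were lower, beside 6.98% and 7.94% of all genes, with a median log2 ratio of 1.03. Itgam (40 UMIs in WT and 384 in KO) passed the filter on gene means only through its KO cells. The study picked Itgam and Tyrobp of this list on these same cells and also names Cd68, from bulk RNA-seq, so the count is not independent evidence of its direction. The 9 megakaryocyte genes, with 1 higher and 4 lower, spread in both directions, from -4.47 to 1.16.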

How the data were processed

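Single-cell RNA-seq of 8 libraries (4 WT, 4 KO) was analysed from 1 table of log2 values that the authors deposited. Per the methods, reads from barcoded oligo-dT libraries were aligned to the mm9 mouse transcriptome and collapsed by UMI, cells under 30% mapping, 2000 genes or 20000 transcripts were removed, genes with a mean above 0.2 were kept, and the values were normalized. In the table, which lacks the removed genes, 259 of 304 WT and 234 of 282 KO cells reached 2000 genes and 20000 UMIs, and these were kept. Neither the aligner nor the method of normalization is given in the sources used here. With the log2 undone, every value was a whole multiple of the smallest value above 0 of its cell (100% within 0.01), which gave back UMI counts.

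Counts of kept cells were added up within each label. Because each label is 1 pool, no p-value or standard error was computed, and intervals are exact (Clopper-Pearson for ratios and shares, Poisson for CPM, 95%). Kept cells held 20038 to 496293 UMIs in WT and 20027 to 467384 in KO. Cells were not clustered, and doublets were not sought, as each cell had been hand-picked. The 9 genes and all lists were chosen with earlier results of these data known. Named besides the 9 genes were Med23, Zp3, wider-list genes past 2-fold and, for each of the 9 genes detected in at least 10% of cells of each label, the 3 most similar genes among those with a mean of at least 0.5 UMI, of which 1 is not reported here. Septin5, also planned, was not analysed here. Scripts used Python 3.11.15, numpy 2.4.6, pandas 2.3.3 and scipy 1.17.1, and were tested on simulated data. The alternatives were every cell, at least 3000 genes and 30000 UMIs, no cells with oocyte transcripts, thinned cells, scaling by TMM or by median of ratios, means of the authors' own normalized values, omission of the top cell, and, for shares, 10000 UMIs, no thinning, a minimum of 2 UMIs and another random draw.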

Additional observations from a re-analysis of the deposited data

How the results depend on the processing

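Of the 9 genes, all but Pf4 kept the direction of their pooled log2 ratio under all 8 alternatives. Pf4 (-0.10) was at 0.21 with thinned cells and 0.055 without the top cell of each label, and as the middle gene it set the median of the 9 genes to the same values, which was also -0.15 with at least 3000 genes and 30000 UMIs, -0.41 without the cells with oocyte transcripts and -0.66 with the authors' normalized values. The summed log2 ratio (0.12) was -0.10 without the cells with oocyte transcripts, -0.31 with the authors' values, 0.074 with the stricter minimum, 0.38 with thinned cells and 0.22 without the top cells. Hence no direction is given for the genes as a whole. With thinned cells 2 genes (Selp and Itga2b) were higher by 2-fold, and 3 rather than 4 were lower. The difference in genes detected per cell (0.39) was 0.051 with no thinning. The share of cells with Itgb3 went from 1.29 percentage points higher in KO to -2.24 with no thinning and -1.11 in another random draw. Med23 (0.35) was at -0.40 with the stricter minimum and -0.13 with the authors' values. The causes of these shifts were not tested.

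The median of the wider megakaryocyte lists stayed between 0.09 and 0.29. Median-of-ratios and TMM scaling each shifted every ratio by -0.03. No paired analysis was possible because cell columns are not tied to a numbered library, and for the same reason no library could be left out. Depth limits Vwf and Clu in KO, at 7 UMIs each.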
